A study of Gallus gallus with 18 samples.

Results

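CARHSp1 (ENSGALG00000026113) and ARHGDIG (ENSGALG00000025911) are 2 of the 17108 chicken genes counted in these libraries. Both belong to the stretch of chromosome 14 on which the study was centred, which holds the alpha-globin genes and a gene desert. In the gene order used below, CARHSp1 lies between USP7 and ABAT, a locus that the study places across the desert from the globin genes. ARHGDIG lies on the globin side. Both genes were chosen by their read counts in these same libraries. CARHSp1 was picked for being high in the lymphoid line DT40 and nearly absent from the erythroid line HD3, and ARHGDIG for the reverse. The difference from DT40 is therefore how the genes were picked and is described here with no test. The comparison within HD3 cells was not a ground of the choice and was tested. The HD3 counts did enter the choice, however, and it was made with earlier results of these data known.

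CARHSp1 (calcium-regulated heat-stable protein) is, in mammals, a small cytoplasmic protein with a cold-shock domain, a fold that binds single-stranded nucleic acid. It is phosphorylated on serine, is a substrate of the calcium-dependent phosphatase calcineurin and binds certain messenger RNAs.

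Total RNA depleted of ribosomal RNA was sequenced in 3 groups of cultured cells with 2 biological replicates each. HD3dif are HD3 cells induced to differentiate for 14 h at 42 °C in air with 20 μM iso-H-7, a protein kinase inhibitor, and 10 mM HEPES buffer. HD3pr are the same cells kept proliferating at 37 °C, and DT40 cells were also grown at 37 °C. HD3 (clone A6 of line LSCC) is an erythroblast line transformed by avian erythroblastosis virus, and DT40 is a B-cell lymphoma line induced by avian leukosis virus. Each lineage is thus represented by 1 virus-transformed line, so that lineage and line cannot be told apart, and neither can differentiation, the inhibitor and the shift in temperature.

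Reads assigned to genes numbered 20100063 and 24054973 in HD3dif, 30576844 and 29784807 in HD3pr, and 28726204 and 33433279 in DT40. Reads that fell in no gene made up 46.6% and 45.9% of the file in HD3dif, against 33.3% and 34.1% in HD3pr and 26.9% and 28.7% in DT40. Of the lineage markers, 1 could be matched to an identifier: HBZ, an embryonic alpha-type globin gene, had 1000 and 1163 reads in HD3dif, 180 and 133 in HD3pr and 0 in both DT40 libraries. The identifier of HBZ was found by matching its reads in replicate 1 of each group to the study's table, so those reads are no check on the labels. The labels of the DT40 cells were not checked against B-cell markers.

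CARHSp1 was abundant in DT40 cells and rare in HD3 cells, with an intermediate level after induction. It had 92 and 93 reads in HD3dif, 32 and 19 in HD3pr, and 4321 and 4867 in DT40. In counts per 1e+06 gene reads (CPM), scaled between libraries by trimmed mean of M values (TMM), these were 4.19 and 3.57 CPM in HD3dif, 1.14 and 0.697 CPM in HD3pr, and 150.8 and 143.8 CPM in DT40. The gap to DT40 is the basis on which the gene was chosen. The 95% exact Poisson intervals spanned 2.88 to 5.14 CPM over both HD3dif libraries, 0.420 to 1.61 CPM over HD3pr and 140 to 155 CPM over DT40. Such intervals cover counting error only, and reads of polymerase chain reaction copies are not separate molecules. In RNA from bulk cultures, fewer cells with the transcript and less transcript per cell cannot be told apart.

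ARHGDIG ran the other way, with its highest level in proliferating HD3 cells and only traces in DT40. It had 148 and 196 reads in HD3dif, 349 and 314 in HD3pr, and 22 and 16 in DT40. The levels were 6.75 and 7.52 CPM in HD3dif, 12.5 and 11.5 CPM in HD3pr, and 0.768 and 0.473 CPM in DT40. Here too the gap to DT40 is the basis of the choice. The Poisson intervals spanned 5.70 to 8.65 CPM in HD3dif, 10.3 to 13.9 CPM in HD3pr and 0.270 to 1.16 CPM in DT40. Its highest level in any library thus rested on 349 reads.

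**Figure D1:**
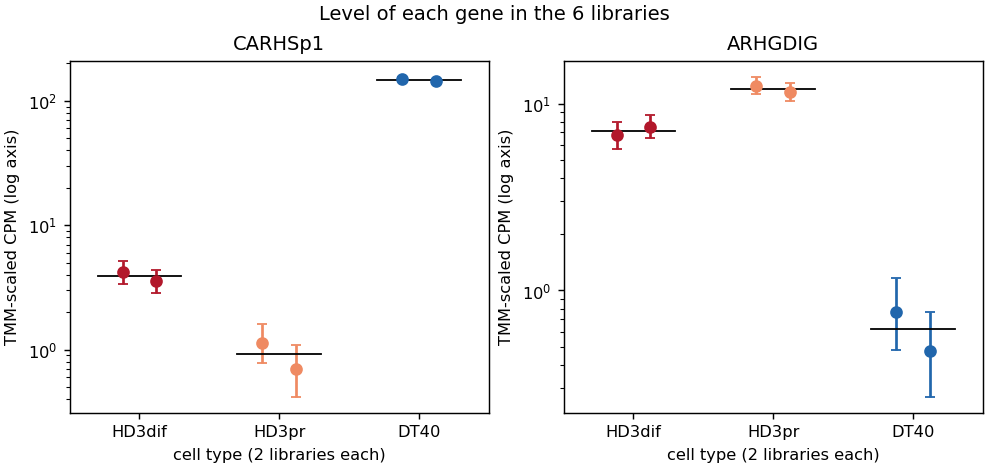
Levels of CARHSp1 (left) and ARHGDIG (right) in TMM-scaled CPM, on log axes whose ranges differ between the panels, for HD3dif, HD3pr and DT40 cells. Points are libraries with 95% Poisson intervals, and bars are means of 2 libraries: CARHSp1 averaged 3.88, 0.920 and 147 CPM and ARHGDIG 7.13, 11.995 and 0.620 CPM in these cell types, from left to right.

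Induction of HD3 cells was the comparison that could be tested. CARHSp1 rose in HD3dif: it averaged 3.88 ± 0.441 CPM in HD3dif and 0.920 ± 0.316 CPM in HD3pr (SD, n = 2 each). The fitted log2 fold change was 2.06 (SE 0.208), a 4.17-fold higher level, with an adjusted p of 2.0e-08 (edgeR quasi-likelihood test, Benjamini-Hochberg over 10898 genes). Over the 4 pairs of an HD3dif with an HD3pr library the ratio of CPM ranged between 3.12 and 6.02. Calls required a log2 fold change beyond 0.6 and an adjusted p below 1e-07. These limits were passed by 1 of the 2 genes, CARHSp1, and by 30.6% of all tested genes, 1306 of them higher and 2030 lower in HD3dif (1968 higher and 1395 lower when libraries were scaled by their gene reads alone). Counted from the highest fold change, CARHSp1 stood at rank 1056 of 10898, a list that mixes genes of all levels. More genes had a read in HD3dif (14094 and 14244) than in HD3pr (12768 and 12708), from fewer gene reads. Without a filter on low counts, 2024 genes were called higher and 2487 lower, with a median log2 fold change of 0.28. Whether the rise of CARHSp1 was part of a broad rise of genes with few reads was not tested.

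The call of CARHSp1 lay close to its limit on p in this fit. Of 15 alternatives 9 kept it, among them DESeq2 (adjusted p = 1.0e-17), and 6 lost it. Among the 9, the looser limit of an adjusted p below 0.05 on the same fit could not lose it. Totals of all reads, also among the 9, were chosen after seeing the data. Leaving out HD3dif replicate 1 or 2 gave log2 fold changes of 2.01 and 2.25, and leaving out HD3pr replicate 1 or 2 gave 2.46 and 1.75. The call was lost in these fits, in which fewer of all tested genes were called as well. A fit without the DT40 libraries gave 2.06 with an adjusted p of 4.2e-07 (edgeR), also short of it.

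ARHGDIG did not pass the limits in the same comparison. It averaged 7.13 ± 0.549 CPM in HD3dif and 11.995 ± 0.676 CPM in HD3pr (SD, n = 2 each), so that the level after induction was 59.5% of that in proliferating cells. Both HD3dif libraries were below both HD3pr libraries, with ratios of 0.541 to 0.653 over the 4 pairs. The log2 fold change was −0.75 (SE 0.160) with an adjusted p of 2.9e-04 in the same edgeR fit, beyond the limit on size but short of that on p. From the lowest fold change upwards it stood at rank 2226 of 10898. The value depended on scaling: it was −0.50, inside the limit on size, when libraries were scaled by their gene reads alone. It was −0.90 (edgeR, adjusted p = 7.9e-07) when the totals were all reads in the file. Those totals add ambiguous and not uniquely aligned reads as well as reads in no gene. For CARHSp1 these scalings gave 2.31 and 1.91. They moved the median of all tested genes to 0.28 and −0.12, against 0.03 with TMM factors. Relative to that median CARHSp1 was at 2.03, 2.02 and 2.03 and ARHGDIG at −0.78 in all 3. A change of scaling shifts all genes of a library by nearly the same amount, so these relative values could hardly change and are no check. The larger share of reads without a gene in HD3dif moved with both results, and its part in them was not tested.

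**Figure D2:**
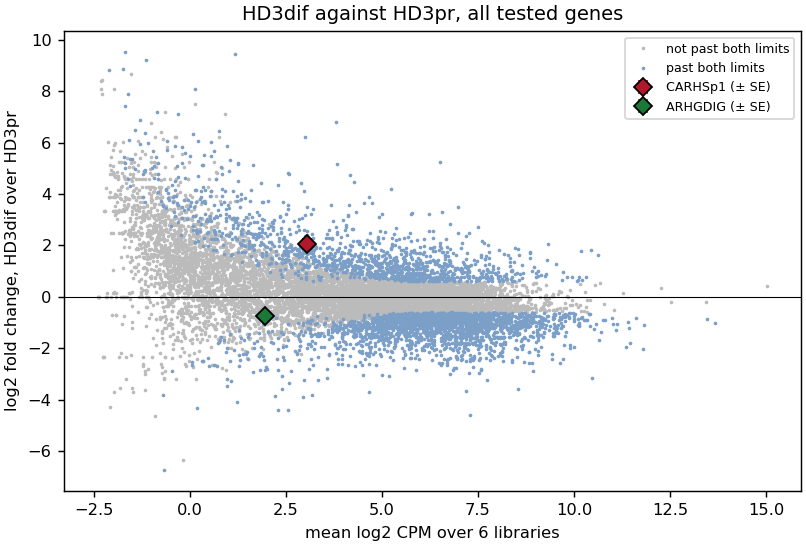
Log2 fold change of HD3dif over HD3pr against mean log2 CPM over 6 libraries, for the 10898 tested genes. The mean includes DT40, where CARHSp1 was high. Blue points passed both limits and grey points did not, and diamonds with SE bars, which are about as small as the symbols, mark CARHSp1 (2.06, among the blue points) and ARHGDIG (−0.75, among the grey ones).

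Against DT40 the sizes are given as a description, since this is the difference by which the genes were chosen. CARHSp1 was 38.1-fold lower in HD3dif than in DT40 (log2 fold change −5.25) and 159-fold lower in HD3pr than in DT40 (−7.31). Mean levels were 2.64% of the DT40 level in HD3dif and 0.625% in HD3pr. Between single libraries the difference was 34.3-fold to 42.2-fold for HD3dif and 126-fold to 216-fold for HD3pr, and the HD3pr libraries held 32 and 19 reads. With 54.4% of all tested genes called in HD3dif against DT40 and 41.4% in HD3pr against DT40, a difference between these lines was common. Among 10898 genes ordered by signed fold change, CARHSp1 held rank 304 from the lowest in HD3dif and rank 278 in HD3pr, and by size in either direction it held ranks 1254 and 797.

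ARHGDIG was 11.6-fold higher in HD3dif than in DT40 (log2 fold change 3.54) and 19.5-fold higher in HD3pr than in DT40 (4.29). The span over single libraries was 8.79-fold to 15.9-fold for HD3dif and 15.0-fold to 26.4-fold for HD3pr. Here the lower ends were set by DT40 replicate 1 and the upper ends by DT40 replicate 2, at 22 and 16 reads. ARHGDIG held rank 1426 from the highest of 10898 genes in HD3dif and rank 948 in HD3pr, and ranks 1946 and 1488 by size in either direction. The comparisons with DT40 share their DT40 libraries, and each shares its HD3 libraries with the comparison of HD3dif with HD3pr.

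The reads of both genes within 1 library need no scaling between libraries. The number of CARHSp1 reads per ARHGDIG read was 0.622 and 0.474 in HD3dif, 0.0917 and 0.0605 in HD3pr, and 196 and 304 in DT40. As log2 ratios these were −0.69 and −1.08 in HD3dif, −3.45 and −4.05 in HD3pr, and 7.62 and 8.25 in DT40. Transcript lengths were not at hand, so a single ratio does not say which gene was expressed more, but its differences between libraries are free of length. Both HD3dif libraries had a ratio nearer to the DT40 values than the HD3pr libraries had, but still far from them. CARHSp1 was higher and ARHGDIG lower than in HD3pr, the latter short of the limit on p.

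**Figure D3:**
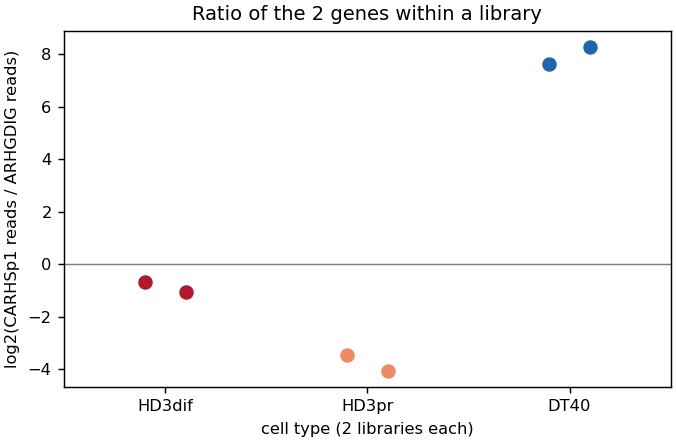
Log2 ratio of CARHSp1 reads to ARHGDIG reads within each of the 6 libraries (HD3dif, HD3pr and DT40, 2 points each). The 0 line marks equal numbers of reads, and the HD3dif points (−0.69 and −1.08) lie above the HD3pr points (−3.45 and −4.05) and below the DT40 points (7.62 and 8.25).

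Both genes were set beside the other genes of the region. The study's table of that region lists 35 genes, and 27 could be paired with an identifier through their reads, 25 of them other than CARHSp1 and ARHGDIG. Ep300, CLCN1 and KIAA0556 were not found by name in the gene order of chromosome 14 used below. Whether the identifier paired with Ep300 is that gene is unsure. It was called higher in HD3dif against HD3pr (1.11), HD3pr against DT40 (0.90) and HD3dif against DT40 (2.01), so each count of higher genes below includes it. In HD3dif against HD3pr, 9 of these 25 were called higher and 4 lower, with a median log2 fold change of 0.72, against 1306 higher and 2030 lower of 10898 and a median of 0.03 over all tested genes. Scaled by gene reads alone, 11 of the 25 were higher and 3 lower, against 1968 higher and 1395 lower over all tested genes. With any 1 of the 4 HD3 libraries left out, fewer of the 25 were called higher, as were fewer of all tested genes. CARHSp1 held rank 5 from the highest of the 27 and ARHGDIG rank 4 from the lowest. In HD3dif against DT40, 13 of the 25 were called higher and 3 lower (median 1.20), when 27.3% of all tested genes were higher and 27.1% lower (median 0.04). In HD3pr against DT40, 7 were higher and 1 lower (median 0.33), when 23.0% of all tested genes were higher and 18.3% lower (median 0.08). CARHSp1 was the lowest of the 27 in both comparisons with DT40, and ARHGDIG was at rank 4 from the highest in HD3dif and rank 2 in HD3pr. The choice of both genes by their difference from DT40 favours such ranks.

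The gene called lower in HD3pr than in DT40 was NAA60, which encodes an N-terminal acetyltransferase, at −1.57 (SE 0.155, edgeR adjusted p = 1.0e-08). It averaged 4.07 ± 0.361 CPM in HD3pr and 12.1 ± 0.671 CPM in DT40 (SD, n = 2 each). The call was lost on leaving out HD3dif replicate 1 or 2 (−1.54 and −1.63) or HD3pr replicate 1 or 2 (−1.65 and −1.47). In these fits fewer of all tested genes were called lower as well. In HD3dif against DT40 the genes called lower were PMM2, NUDT16L1 and TRAP1, at −1.38, −1.44 and −1.05. The difference of CARHSp1 from DT40, at −7.31 in HD3pr and −5.25 in HD3dif, was larger in size than any of these. It is also the difference by which CARHSp1 was chosen.

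**Figure D4:**
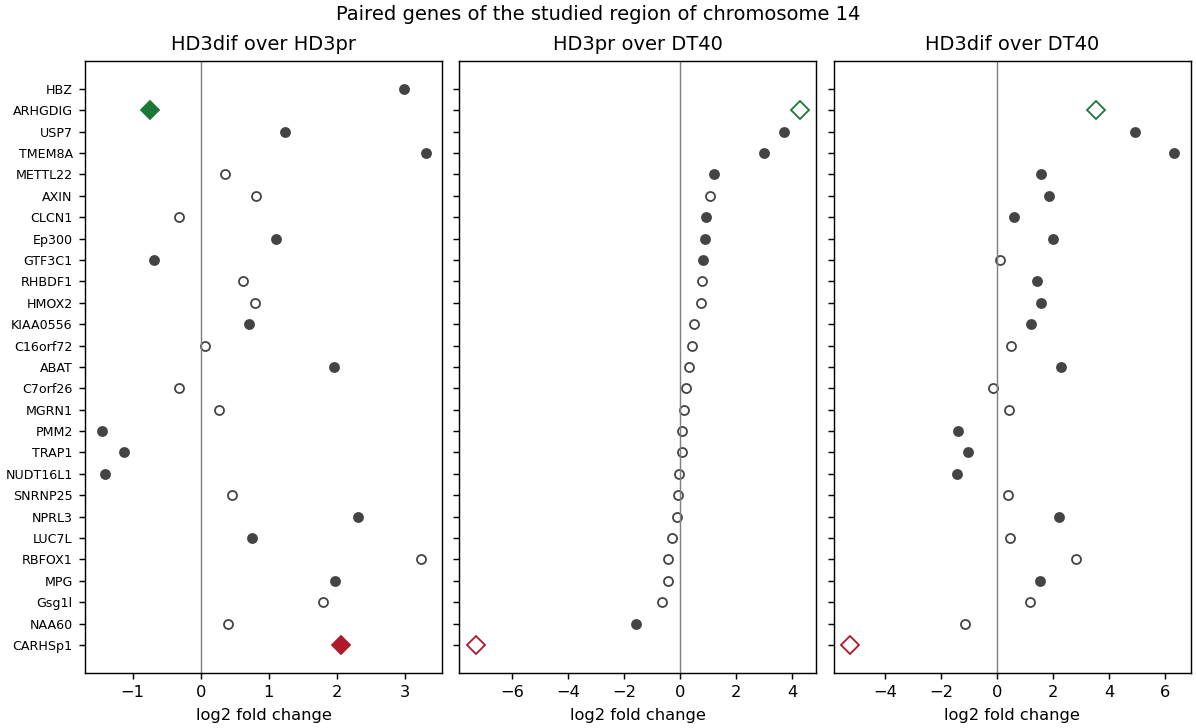
Log2 fold changes of the 27 paired genes of the studied region, ordered by HD3pr over DT40, in HD3dif over HD3pr (left), HD3pr over DT40 (middle) and HD3dif over DT40 (right). Filled circles passed both limits and open circles did not, diamonds are CARHSp1 (red) and ARHGDIG (green), filled where tested whether or not the limits were passed and open where not tested, and HBZ is left out against DT40, where it had 0 reads. CARHSp1 lies at the bottom at −7.31 and −5.25 against DT40 and at 2.06 on the left.

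The order of protein-coding genes on chromosome 14 of assembly GRCg7b, which is a later build than the one used for counting, gave the neighbours among the paired genes. On 1 side of CARHSp1 came PMM2, with no annotated protein-coding gene between them, then ABAT, METTL22, RBFOX1 and Gsg1l. ABAT and METTL22 had 2 and 4 such genes between, and RBFOX1 and Gsg1l had 7 and 11, so that these are not close neighbours. The study places a predicted RBFOX1 in its gene desert. PMM2, a phosphomannomutase of protein glycosylation, had 50.6 ± 0.138 CPM in HD3dif, 139 ± 2.57 CPM in HD3pr and 132 ± 2.17 CPM in DT40 (SD, n = 2 each). It fell by 1.46 on the log2 scale in HD3dif against HD3pr (SE 0.052, edgeR adjusted p = 1.2e-15) and was at 0.08 in HD3pr against DT40 (SE 0.048, adjusted p = 0.13). The nearest protein-coding gene on that side was therefore lower after induction, where CARHSp1 was higher.

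On the other side, with 1 annotated protein-coding gene between, lay the gene paired with the name USP7 (ENSGALG00000026085). As for every gene of the region named here, CARHSp1 and ARHGDIG among them, its name and place rest on the pairing with the study's table. Whether this identifier is USP7 is unsure and could not be checked. It had 496 and 714 reads in HD3dif, 313 and 275 in HD3pr, and 28 and 23 in DT40. This identifier rose in HD3dif against HD3pr by 1.24 (SE 0.130, edgeR adjusted p = 3.6e-08) and in HD3pr against DT40 by 3.70 (SE 0.202, adjusted p = 7.8e-13), a direction opposite to that of CARHSp1 against DT40. ABAT, the GABA transaminase, rose in HD3dif against HD3pr by 1.96 (SE 0.056, adjusted p = 4.3e-17), close to the 2.06 of CARHSp1, and was at 0.33 in HD3pr against DT40. In the same comparison METTL22 was at 0.35, RBFOX1 at 3.24 and Gsg1l at 1.81, the last 2 at low counts. C16orf72, on the side of USP7 with 3 such genes between, was at 0.07, and none of these passed the limits. Of the 7 paired neighbours of CARHSp1, 2 were called higher and 1 lower in HD3dif against HD3pr, when 1306 and 2030 of all 10898 tested genes were. The median of the 7 was 1.24, the value of the identifier paired with USP7, against 0.03 over all tested genes. Leaving out HD3dif replicate 1 or 2 or HD3pr replicate 1 or 2 lost the call of the identifier paired with USP7 (1.16 to 1.43). In these fits fewer of all tested genes were called higher as well. Against DT40, 3 of the 7 neighbours were higher and 1 lower in HD3dif (27.3% and 27.1% of all tested genes), and 2 higher and 0 lower in HD3pr (23.0% and 18.3%).

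ARHGDIG lies on the globin side of the region. Before it came AXIN, TMEM8A, HBZ, NPRL3 and MPG, and after it LUC7L, C7orf26, NAA60, NUDT16L1 and MGRN1. In that order 1, 3, 6, 7 and 8 protein-coding genes lay between on the first side. On the second side 2, 8, 9, 10 and 11 did, so that most of these are not close neighbours. The nearest on either side were AXIN and LUC7L, with 1 and 2 annotated protein-coding genes between. AXIN is a scaffold of the complex that degrades beta-catenin, and LUC7L is a splicing factor related to a yeast U1 component. AXIN had 30.9 ± 4.68 CPM in HD3dif, 17.7 ± 1.67 CPM in HD3pr and 8.56 ± 1.16 CPM in DT40 (SD, n = 2 each). It was called in HD3dif against DT40 (1.86, SE 0.126, edgeR adjusted p = 1.8e-11) but not in HD3dif against HD3pr (0.81, SE 0.117, adjusted p = 3.2e-06) or HD3pr against DT40 (1.05, SE 0.130, adjusted p = 2.8e-07). Its levels thus lay in the order HD3dif, HD3pr, DT40, while those of ARHGDIG lay in the order HD3pr, HD3dif, DT40.

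LUC7L rose in HD3dif against HD3pr by 0.75 (SE 0.075, edgeR adjusted p = 1.9e-08) and was at −0.30 in HD3pr against DT40 (adjusted p = 0.0012). Of the 10 paired neighbours of ARHGDIG, 5 were called higher in HD3dif than in HD3pr: TMEM8A at 3.32, HBZ at 2.99, NPRL3 at 2.32, MPG at 1.98 and LUC7L. NUDT16L1 was called lower, at −1.41. Over all 10898 tested genes 1306 were higher and 2030 lower. Leaving out HD3dif replicate 1 or 2 or HD3pr replicate 1 or 2 lost the call of LUC7L (0.74 to 0.82). In these fits fewer of all tested genes were called higher as well. In HD3dif against DT40, 5 were called higher and 1 lower (27.3% and 27.1% of all tested genes). In HD3pr against DT40, 2 (HBZ and TMEM8A) were called higher and 1 (NAA60) lower (23.0% and 18.3% of all tested genes). The call of NAA60 was lost without any 1 of the same 4 HD3 libraries. TMEM8A shared with ARHGDIG a higher level in HD3pr than in DT40, 88.0 ± 0.330 CPM against 10.9 ± 0.324 CPM (SD, n = 2 each), but differed from it after induction, when it averaged 877 ± 30.5 CPM.

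Genes with the most similar pattern were sought by the root mean square difference of log2 CPM over the 6 libraries, after subtraction of each gene's mean, among 10897 tested genes. For CARHSp1 the nearest was ENSGALG00000009368, at a distance of 0.17, with 19 and 16 reads in HD3dif, 5 and 2 in HD3pr, and 685 and 776 in DT40. The next, at 0.21, was ENSGALG00000010053, with 5 and 6 reads in HD3dif, 1 and 0 in HD3pr, and 265 and 424 in DT40. Its place depended on the measure: it was not among the 3 nearest by correlation or with a prior count of 0.5 in place of 2. Both genes shared the order of CARHSp1, with DT40 highest, HD3dif far lower and HD3pr lowest, at lower counts. Within a distance of 0.5 there were 38 genes.

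ENSGALG00000003172 was nearest to ARHGDIG, at 0.15, with 178 and 237 reads in HD3dif, 343 and 342 in HD3pr, and 30 and 22 in DT40. ENSGALG00000003819 followed at 0.18, with 92 and 117 reads in HD3dif, 246 and 190 in HD3pr, and 16 and 13 in DT40. It was not among the 3 nearest by correlation. Both genes had reads in a similar range and the order HD3pr, HD3dif, DT40. The number of genes within 0.5 was 122, and none of the 3 nearest genes of either member was among the paired genes of the region. The files give no names for these identifiers.

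**Figure D5:**
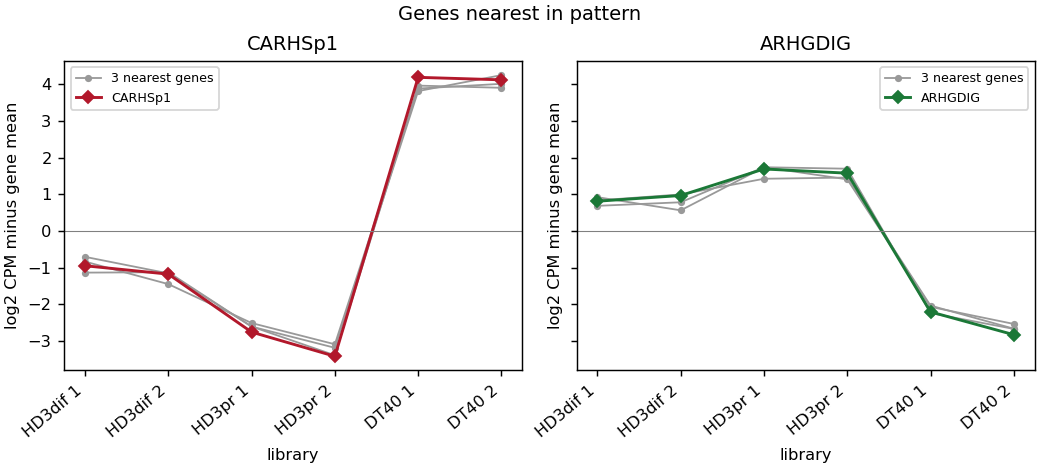
Log2 CPM minus the gene's mean over 6 libraries, by library, for CARHSp1 (left, red) and ARHGDIG (right, green), each with its 3 nearest genes in grey. All 3 grey lines in each panel follow the order of their coloured line, with DT40 highest on the left and lowest on the right, as they were picked to do.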

How the data were processed

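RNA-seq libraries of HD3dif, HD3pr and DT40 cells (2 biological replicates each, stated by the study to be independent) were analysed from the deposited read counts per Ensembl gene. The authors prepared stranded, ribosomal RNA-depleted libraries, aligned reads to galGal4 with TopHat2 2.0.12 and counted them with HTSeq, per the labels and the study's methods. The strand setting of the counting is not given in the sources used here. How reads of overlapping genes on opposite strands were assigned is therefore not known. Counts were tested with the edgeR 4.0.16 quasi-likelihood test in R 4.3.3 (TMM factors, CPM above 1 in at least 2 of 6 libraries, group as the only term, all 6 libraries), with limits of 0.6 on the log2 fold change and 1e-07 on the Benjamini-Hochberg adjusted p. Both genes passed the filter on low counts, through the HD3dif libraries as well as through the group where they are highest. The SE is the log2 fold change divided by the root of the F statistic. The procedure was tested on simulated data with a common spread for all genes. Changes were put only into genes above a minimum of expected reads, so it says little about genes with as few reads as CARHSp1 in HD3pr. Replicates differed by more than sampling noise (chi-square per gene of 4.23 to 12.8) and were kept apart.

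Rows without a gene (26.9% to 46.6% of reads without a feature, and further special rows) were left out of totals and tests. Names were paired with identifiers through the study's table of the region. The CPM it lists for 35 genes were turned into reads, with library totals tuned so that the reads came out whole. These were matched to replicate 1 of each group, although the study describes its CPM as averages over replicates. They matched 1 identifier for 27 of the genes (at least 10 reads required). Gene order came from RefSeq protein-coding genes on GRCg7b, whose coordinates were used for the order only. No sequence, position or name list for galGal4 was at hand, so that the planned gene family lists, most cell type markers and the coverage files were not used here, nor were the 5C and C-TALE files. Named genes were CARHSp1 and ARHGDIG, up to 5 paired neighbours on either side, and the 3 genes nearest in pattern (log2 CPM with a prior count of 2). Other genes of the region were named where they were the only ones called in a direction, after their values were seen, or where their place was unsure. CARHSp1, ARHGDIG and the lists were chosen with earlier results of these data known. Alternatives were RLE factors, totals, DESeq2 1.42.0, other filters, a replicate block, limits and leaving out libraries. Figures were drawn with matplotlib 3.10.9.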

Additional observations from a re-analysis of the deposited data

How the results depend on the processing

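CARHSp1 was higher in HD3dif than in HD3pr under all 15 alternatives (log2 fold change 1.75 to 2.46, also the range over left-out libraries), but 6 of them left its edgeR adjusted p above 1e-07, among them the replicate block (2.06, adjusted p = 1.3e-07) and a fit of the compared cell types alone (2.06, adjusted p = 4.2e-07). The fold change of ARHGDIG kept its sign under 15 alternatives (−0.90 to −0.50, and −0.81 to −0.61 over left-out libraries) and passed when an adjusted p below 0.05 with no fold limit sufficed (−0.75). Under that limit 8639, 9040 and 9739 genes were called in HD3dif against HD3pr, HD3pr against DT40 and HD3dif against DT40, of the region's other genes 24 and 16 in the first pair of comparisons, of the neighbours of CARHSp1 6, 4 and 7, and of those of ARHGDIG 10 and 6. Over left-out libraries the counts of genes were 2022 to 3754, 3441 to 4111 and 4406 to 5691, with 2022 without HD3dif replicate 2, against 3336 with all libraries. The replicate block gave 2806, 3963 and 5310. Replicate numbers did not pair the samples (correlations of deviations −0.029, −0.058 and 0.050). Scaling by gene reads turned the split in HD3dif against HD3pr to 1968 higher and 1395 lower, against 1306 and 2030 with TMM. Totals of all reads, chosen after seeing the data, gave 1662 and 2851. Against DT40, leaving out libraries gave CARHSp1 −7.71 to −7.00 in HD3pr and −5.39 to −5.12 in HD3dif, and ARHGDIG 3.84 to 4.56 and 3.11 to 3.82. With correlation as the measure, 1 of the 3 nearest genes was shared for either gene, and with a prior count of 0.5, 1 for CARHSp1 and 3 for ARHGDIG. Alternatives for the planned gene family lists were not run, as their names could not be matched. The 19 to 32 reads of CARHSp1 in HD3pr and 16 to 22 of ARHGDIG in DT40 limit the precision of folds.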
